A study of Mus musculus with 16 samples.

Results

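Red blood cells carry a small set of microRNAs (miRNAs, short RNAs that guide Argonaute proteins to messenger RNAs) at very high levels, and 4 of their mature products are described here in mouse serum: mmu-miR-451a, mmu-miR-144-3p, mmu-miR-144-5p and mmu-miR-486a-5p, where mmu stands for mouse and is left out from here on. They were chosen by name, as the rows of the array that carry these miRNA names, and are 4 of the 1881 mouse miRNAs on it. The study took serum from male mice aged 4, 8, 36 and 58 weeks, with 4 mice at each age, to look for serum miRNAs whose levels change with ageing. Blood was drawn from the heart into serum-separator tubes and spun, and 1 ng of serum RNA per mouse was labelled with Cy3 and hybridised to an Agilent mouse miRNA array, 1 array per mouse. No strain, treatment or genotype is named in the labels used here, so the groups differ by age alone as far as the labels go. Of the 4 miRNAs, miR-451a and miR-486a-5p were detected on all 16 arrays, miR-144-3p on 6 and miR-144-5p on none.

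The genes for miR-144 and miR-451a sit next to each other and are transcribed together in maturing red cells under the erythroid transcription factor GATA1. The miR-451a precursor bypasses Dicer: its short hairpin is cut by Argonaute 2 itself, so that the mature strand runs from the stem around the loop. The gene for miR-486 lies within Ank1, which encodes the red cell membrane protein ankyrin, and it is also active in skeletal and heart muscle. Serum holds no cells, so these miRNAs reach it by release from cells or by lysis of cells, red cells among them. The ratio of miR-451a to miR-23a-3p, which is little affected by red cell lysis, is a common gauge of red cell RNA in serum and plasma. More red cell RNA in the serum and more of the miRNA per cell cannot be told apart in these data.

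The mature sequences below, from RefSeq (GRCm38.p6), show how little the members share: each has its seed, bases 2 to 8 from the 5′ end and the main determinant of target choice, in capitals.
miR-451a: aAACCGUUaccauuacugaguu
miR-144-3p: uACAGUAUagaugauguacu
miR-144-5p: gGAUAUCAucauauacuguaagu
The 3 sequences, of 22, 20 and 23 bases, have 3 different seeds, and no other mature miRNA of the table shares any of them over bases 2 to 8. Over bases 2 to 7, miR-144-3p matches 1 other, miR-101a-3p, which was detected on 0 of the 16 arrays. The table held no entry for miR-486a-5p. The 2 hairpins follow, also from RefSeq, with the mature strands in capitals, because the position of the strand in the hairpin sets miR-451a apart from miR-144.
Mir144: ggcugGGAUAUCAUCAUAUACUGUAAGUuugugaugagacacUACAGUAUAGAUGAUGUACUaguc
Mir451a: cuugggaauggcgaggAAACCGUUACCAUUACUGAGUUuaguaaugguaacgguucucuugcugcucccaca
The Mir144 hairpin (66 bases, chr11:78073005-78073070, plus strand) gives a strand from each arm, at bases 6 to 28 and 43 to 62. The Mir451a hairpin (72 bases, chr11:78073170-78073241, plus strand) starts 99 bases further on and gives 1 strand, at bases 17 to 38. Bases 2 to 17 of mature miR-451a are the exact reverse complement of bases 40 to 55 of its hairpin, a run of 16, and the mature bases after that run lie on the side of the loop. In the same RefSeq annotation Mir451b occupies the same bases as Mir451a, and Mir3107, which is also called mir-486b, lies inside Mir486, which lies inside Ank1. Some products of these overlapping genes had their own names on the array: miR-451b was detected on 0 of 16 arrays, miR-486a-3p on 7 and miR-486b-3p on 5. The name miR-486b-5p was not on the array. Whether the probes of miR-486a-5p also read a product of Mir3107 was not tested.

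Each member was read by 2 probes of 15 spots each. The coefficient of variation of the spots within a probe was 1.89% to 5.80% for miR-451a and 1.37% to 6.39% for miR-486a-5p, and no miRNA spot was saturated. The deposited error of the total signal was 7.27% to 8.01% of it for miR-451a and 7.18% to 11.7% for miR-486a-5p. Signals below were scaled between arrays on the 24 miRNAs that every array detected, by setting their 75th percentile equal, and are in arbitrary units that cannot be compared between miRNAs. Between 163 and 360 miRNAs were detected per array. The standard deviation of negative-control spots was 1.82 to 7.45 on 14 arrays, 19.1 on 4-week replicate 1 and 59.3 on 36-week replicate 4, and these arrays and 4-week replicate 4 carry the scanner software's mark for evaluation. The 4- and 8-week arrays lay on 1 slide and the 36- and 58-week arrays on another, so that across slides age and slide cannot be told apart.

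miR-451a, the main miRNA of mature red cells, was present in every serum. Its scaled signal at 4 weeks was 4913, 3768, 5623 and 6774 in replicates 1 to 4. At 8 weeks it was 1783, 3380, 3995 and 3195. At 36 weeks it was 4096, 4934, 3079 and 1972, and at 58 weeks 3464, 2949, 5649 and 2907. The 4-week mice were the highest as a group, yet every later age overlapped them: 3 of the 4 mice at 8 weeks and 3 of the 4 at 58 weeks lay below all 4-week mice. The highest array was 3.80-fold above the lowest. On the log2 scale the means ± SD (n = 4 per age) were 12.33 ± 0.36 at 4 weeks, 11.53 ± 0.51 at 8, 11.70 ± 0.58 at 36 and 11.81 ± 0.45 at 58. In that order of levels, 4, 58, 36 and 8 weeks, the neighbours 58 and 36 and the neighbours 36 and 8 differed by less than the spread within either age, and 4 and 58 weeks differed by 0.52 with overlapping mice.

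miR-486a-5p was also present in every serum, with the lowest group at 4 weeks. Its scaled signal was 553, 456, 494 and 712 in the 4-week replicates. The 8-week replicates gave 691, 826, 708 and 1059. The 36-week replicates gave 618, 622, 1861 and 713, and the 58-week replicates 859, 724, 1104 and 657. Of the 8-week mice 2 of 4, and of the 58-week mice 3 of 4, lay above all 4-week mice, and 36-week replicate 3 lay above every other mouse of the study. Mean log2 signals ± SD (n = 4) were 9.09 ± 0.28 at 4 weeks, 9.66 ± 0.28 at 8, 9.72 ± 0.77 at 36 and 9.68 ± 0.33 at 58. The last 3 ages differed by less than the spread within any of them.

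**Figure D1:**
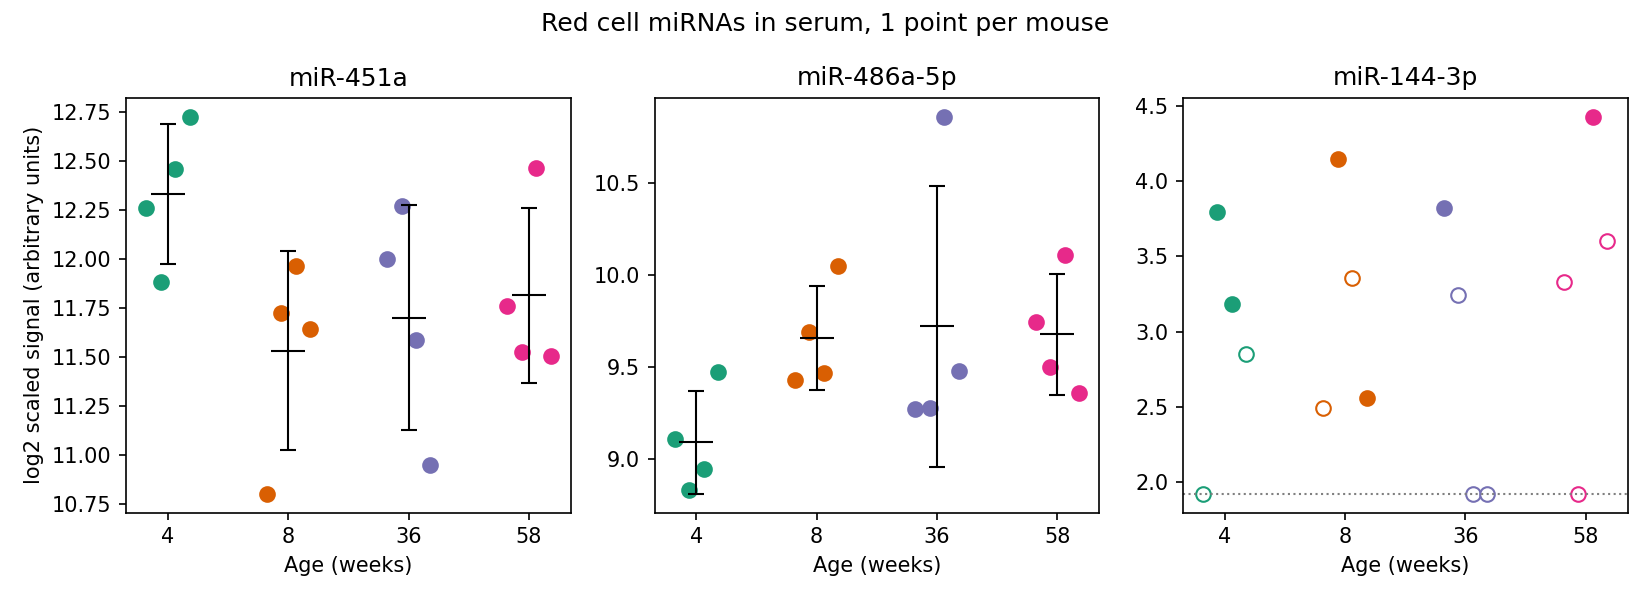
Scaled log2 signal (arbitrary units, 1 axis per miRNA) of miR-451a, miR-486a-5p and miR-144-3p by age in weeks, 1 point per mouse, with the mean ± SD of 4 mice in black for the first 2 miRNAs. Filled points were detected, open points were not, and the dotted line is the floor of the scale; miR-451a has its highest age mean at 4 weeks and miR-486a-5p its lowest, with overlapping mice in both.

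Neither miR-451a nor miR-486a-5p passed limma's test in any comparison of ages, and the 2 miR-144 arms were below the detection filter, so the tests cover 2 of the 4 members among 285 miRNAs. From 4 to 8 weeks, on the same slide, the fitted log2 difference of miR-451a was -0.80 ± 0.43 (SE; 95% interval -1.73 to 0.13; adjusted p = 0.536), a level 1.74-fold lower. In the same comparison miR-486a-5p differed by 0.57 ± 0.43 (-0.34 to 1.48; adjusted p = 0.536), a level 1.48-fold higher. These estimates are read against a median of -0.72 over all 285 miRNAs tested, 229 of which were lower at 8 weeks. Relative to that median miR-451a was close to the typical miRNA, while miR-486a-5p was on its other side. In this comparison 0% of the tested miRNAs passed by limma (6 had an unadjusted p below 0.05), and both intervals still hold a change of over 1 log2 unit. The scaled signals of the 2 ages overlapped for both members, and 3.86% of the tested miRNAs had no overlap.

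The same opposite signs stood between 58 and 4 weeks, where slide and age cannot be told apart. The log2 difference was -0.52 ± 0.43 for miR-451a (adjusted p = 0.998) and 0.59 ± 0.43 for miR-486a-5p (adjusted p = 0.902), beside a median over all tested miRNAs of -0.0031, with 0.351% passing. Both members overlapped between these ages, and 6.67% of tested miRNAs did not. With no scaling miR-486a-5p turned to -0.44 here and miR-451a was at -1.55 (adjusted p = 0.163), against a median of -0.95. Without the 3 marked arrays, which include 2 of the 4 mice at 4 weeks, the differences were -0.03 for miR-451a and 1.11 for miR-486a-5p (adjusted p = 0.953 and 0.157), against a median of 0.46. From 36 to 58 weeks, on 1 slide, the values were 0.11 ± 0.43 (adjusted p = 0.918) and -0.04 ± 0.43 (adjusted p = 0.995), with 0% passing by limma and 5 miRNAs below an unadjusted p of 0.05; both members overlapped, 4.21% of tested miRNAs did not, and both signs turned under some of the alternatives. The slope per doubling of age was -0.09 ± 0.10 for miR-451a (adjusted p = 0.542) and 0.13 ± 0.09 for miR-486a-5p (adjusted p = 0.525), against a median of 0.12 and 0.351% passing, and with no scaling the slope of miR-486a-5p turned to -0.082. With slide as a block the slopes were -0.49 ± 0.36 and 0.36 ± 0.35 and the median of all tested miRNAs was -0.58. Without the 3 marked arrays the slope of miR-451a was -0.0038. In that setting 146 of the 272 miRNAs tested passed for the slope, with 0 members among them. In the main fit the test for any difference between the ages gave adjusted p = 0.501 and 0.569, with 0.351% of miRNAs passing. When arrays were weighted by their quality, miR-451a passed that last test (adjusted p = 0.0271), as did 218 of the 285 miRNAs.

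The size of the single-miRNA differences moved with the scaling and with the arrays kept. Leaving out 36-week replicate 4, which belongs to neither age, raised the number of miRNAs detected on all arrays, on which the scaling rests, from 24 to 67. The 8-week difference then became -0.42 for miR-451a and 0.95 for miR-486a-5p, with the median of all tested miRNAs at -0.30. Without all 3 marked arrays, which takes away 2 of the 4 mice at 4 weeks and brings the scaling to 88 miRNAs, it was -0.11 and 1.29, with that median at 0.09. With no scaling it was -1.28 and 0.09 against a median of -1.20. No member passed under any of these. The signs were the same under each, apart from quantile normalisation, which put miR-451a at 0, and in each of the settings named with a median miR-486a-5p lay above the median of all tested miRNAs.

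The ratio of 2 miRNAs on the same array is free of this scaling, and the ratio of miR-486a-5p to miR-451a separated the 4-week mice from the 8-week and 58-week mice. As log2, miR-486a-5p minus miR-451a was -3.15, -3.05, -3.51 and -3.25 in the 4-week replicates. In the 8-week replicates it was -1.37, -2.03, -2.50 and -1.59. In the 36-week replicates it was -2.73, -2.99, -0.73 and -1.47, and in the 58-week replicates -2.01, -2.03, -2.36 and -2.15. All 12 older mice, from both slides, lay above all 4-week mice, with 36-week replicates 1 and 2 the closest to them. The nearest values were -2.99 at 36 weeks and -3.05 at 4 weeks. How many of all tested miRNAs part the 4-week mice from all older mice was not computed. The means ± SD (n = 4) were -3.24 ± 0.20, -1.87 ± 0.50, -1.98 ± 1.07 and -2.14 ± 0.16 from the youngest to the oldest age.

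From 4 to 8 weeks, within 1 slide, the ratio was higher by 1.37 on the log2 scale, which is 2.58-fold, with no overlap (exact permutation test, 2-sided, p = 0.0286, the smallest that 4 against 4 mice allow; adjusted over the 9 ratio tests, p = 0.129). The ratios were chosen with earlier results of these data known, and the p-values of the ratio tests take no account of that choice. Of the 284 tested miRNAs set against miR-451a in the same way, 1.41% were higher at 8 weeks with no overlap, 4 in number, and 2 of the 23 that were detected on all arrays. When limma was run over all 284 ratios, a test added after the separation was seen, the difference was 1.37 ± 0.56 (95% interval 0.19 to 2.55) with adjusted p = 0.843, the 6th smallest p of the 284. The same fit gave 1.10 ± 0.56 (-0.08 to 2.28) at 58 against 4 weeks, an interval that holds 0, with adjusted p = 0.874 and the 21st smallest p. From 4 to 58 weeks the ratio was higher by 1.10 (2.15-fold), also with no overlap (exact permutation p = 0.0286; adjusted p = 0.129). There 2.82% of miRNAs were higher with no overlap, and 3 of the 23 that were detected on all arrays. A higher ratio to miR-451a was found for 221 of 284, with a median difference of 0.52 over the 284. So most miRNAs moved the same way against miR-451a. From 36 to 58 weeks the ratio differed by -0.16 with overlapping mice (exact permutation p = 0.829), where 0.352% of miRNAs were higher and 3.17% lower against miR-451a with no overlap. Leaving out each mouse in turn gave 1.20 to 1.57 at 8 against 4 weeks and 1.01 to 1.18 at 58 against 4. Quantile normalisation alone brought the 8-week difference down to 0.61 (exact permutation p = 0.171), and in that setting miR-451a, which held the highest or next highest signal on each of the 16 arrays, is given an almost fixed value.

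**Figure D2:**
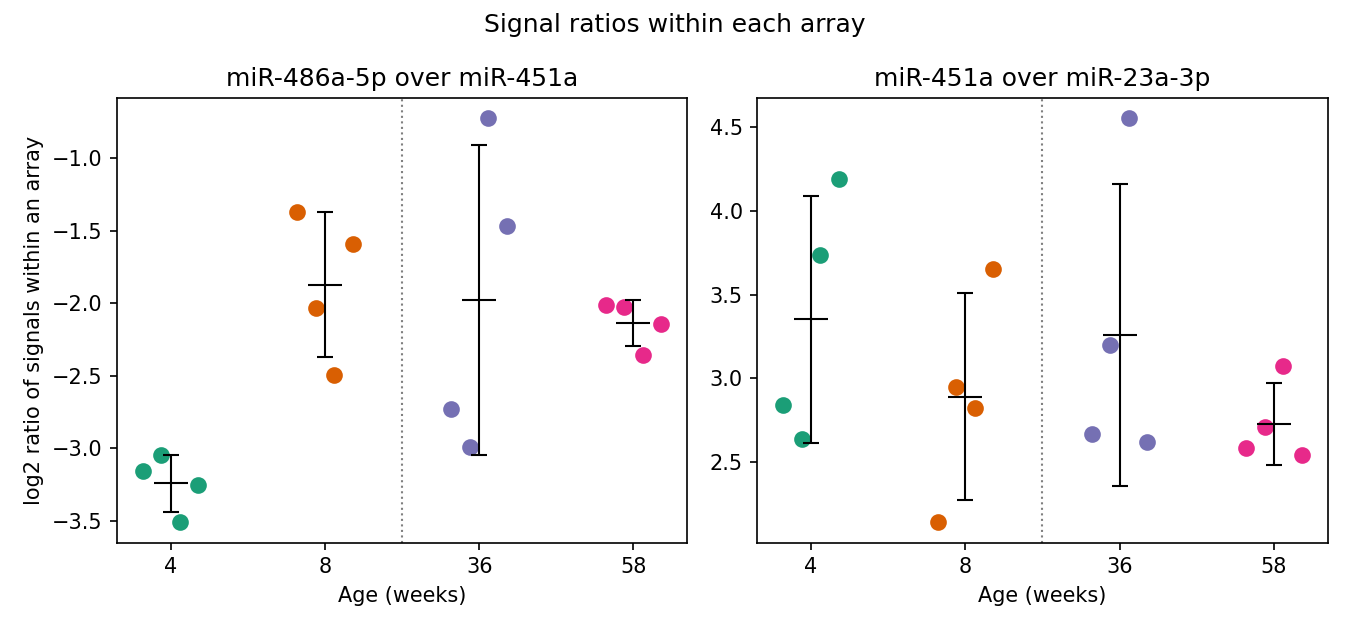
Log2 ratio of signals within an array by age in weeks, 1 point per mouse, with the mean ± SD of 4 mice in black: miR-486a-5p over miR-451a on the left and miR-451a over miR-23a-3p on the right, each on its own axis. The dotted line parts the 2 slides; on the left the 4-week mice lie between -3.51 and -3.05, below the 8-week and 58-week mice, and on the right all ages overlap.

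The gauge of red cell RNA, miR-451a over miR-23a-3p, overlapped between all ages compared. In log2 its means ± SD (n = 4) were 3.35 ± 0.74 at 4 weeks, 2.89 ± 0.62 at 8, 3.26 ± 0.90 at 36 and 2.73 ± 0.24 at 58. The difference was -0.46 from 4 to 8 weeks (exact permutation p = 0.4), -0.53 from 36 to 58 weeks (p = 0.257, exact permutation) and -0.62 from 4 to 58 weeks (p = 0.2, exact permutation), all with 4 mice per age. Adjusted over the 9 ratio tests these were 0.45, 0.386 and 0.386. Single mice ranged from 2.14 in 8-week replicate 1 to 4.55 in 36-week replicate 3, and 4-week replicates 3 and 4 stood at 3.74 and 4.19. On 36-week replicate 3 the scaled signal of miR-23a-3p was the lowest of all arrays (131). That of miR-451a was 3079, between other mice of that age. The SD within an age was 0.62 to 0.90 at 4, 8 and 36 weeks and 0.24 at 58 weeks, beside differences of 0.62 or less between the ages compared. Set against miR-23a-3p in place of miR-451a, a ratio added after the others were seen, miR-486a-5p was higher by 0.90 at 8 than at 4 weeks (p = 0.143, exact permutation) and by 0.48 at 58 than at 4 weeks (p = 0.229, exact permutation), with overlap in both.

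No correlation between the scaled signals of miR-451a and miR-486a-5p was resolved from mouse to mouse, and 16 arrays cannot show that there is none. Over the 16 arrays the scaled log2 signals gave Pearson r = -0.17 (permutation p = 0.525) and Spearman rho = -0.25 (permutation p = 0.355). Within slides r was -0.32 and 0.05 (8 arrays each), and without the 2 arrays farthest from the median of miR-451a it was -0.25. With no scaling r was 0.46 (permutation p = 0.0706) and rho 0.59 (permutation p = 0.0179), in a setting where the overall brightness of an array enters both values. After the age means were taken off, r was 0.18.

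**Figure D3:**
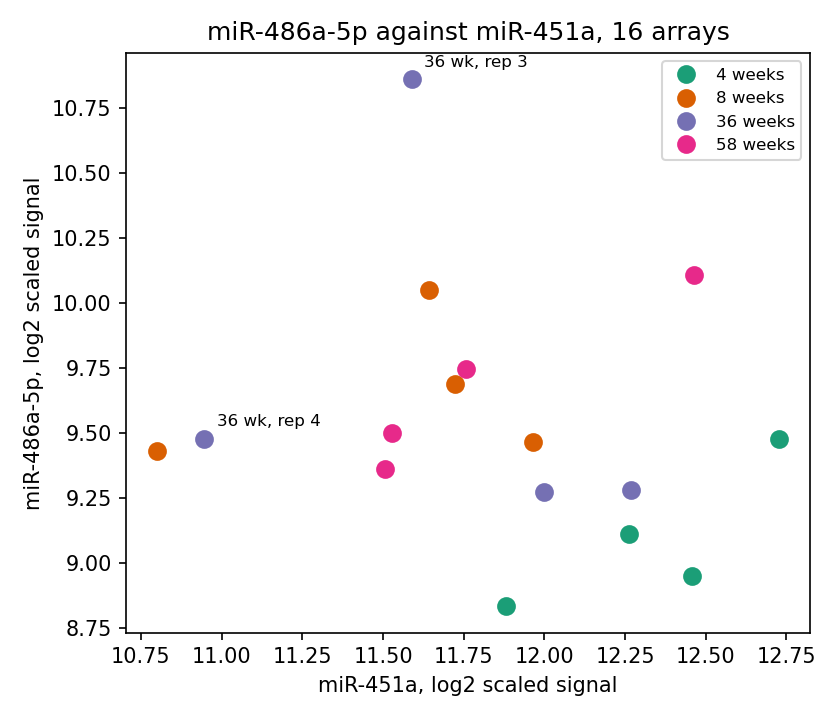
Scaled log2 signal of miR-486a-5p (vertical axis) against that of miR-451a (horizontal axis), 1 point per array, coloured by age. No common line is seen; 36-week replicate 3 has the highest miR-486a-5p and 36-week replicate 4, the array of most background, one of the lowest miR-451a values.

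Some other miRNAs had a higher correlation with miR-451a than miR-486a-5p had. Of the 115 miRNAs detected on at least 12 arrays and ranked by Pearson r of the scaled log2 signal with miR-451a over 16 arrays, the 8 most alike were miR-106b-5p (0.68), miR-1a-3p (0.66), let-7g-5p (0.65), miR-22-3p (0.64), miR-15a-5p (0.62), miR-15b-5p (0.62), miR-16-5p (0.61) and miR-20a-5p (0.60). A list of other red cell miRNAs supplied 5 of these 8 and 9 of those ranked. The 5 are miR-106b-5p, miR-22-3p, miR-15a-5p, miR-15b-5p and miR-16-5p. The rest of the ranked list, miR-92a-3p, miR-25-3p, miR-93-5p and miR-107-3p, lay outside the 8, so the list as a whole is not described by them. miR-1a-3p is a miRNA of heart and skeletal muscle. The least alike were miR-6366 (-0.42), miR-1198-5p (-0.36) and miR-150-5p (-0.34), the last a lymphocyte miRNA, and the partner miR-486a-5p stood at place 88. These values share the arrays' scaling and background and carry no test. The median r over the 115 was 0.20. Without 36-week replicate 4, on which miR-16-5p, miR-15a-5p, miR-15b-5p and miR-22-3p were not detected, miR-16-5p led at 0.61 and the median was 0.10. Under quantile normalisation the 8 values fell to between 0.04 and 0.28.

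**Figure D4:**
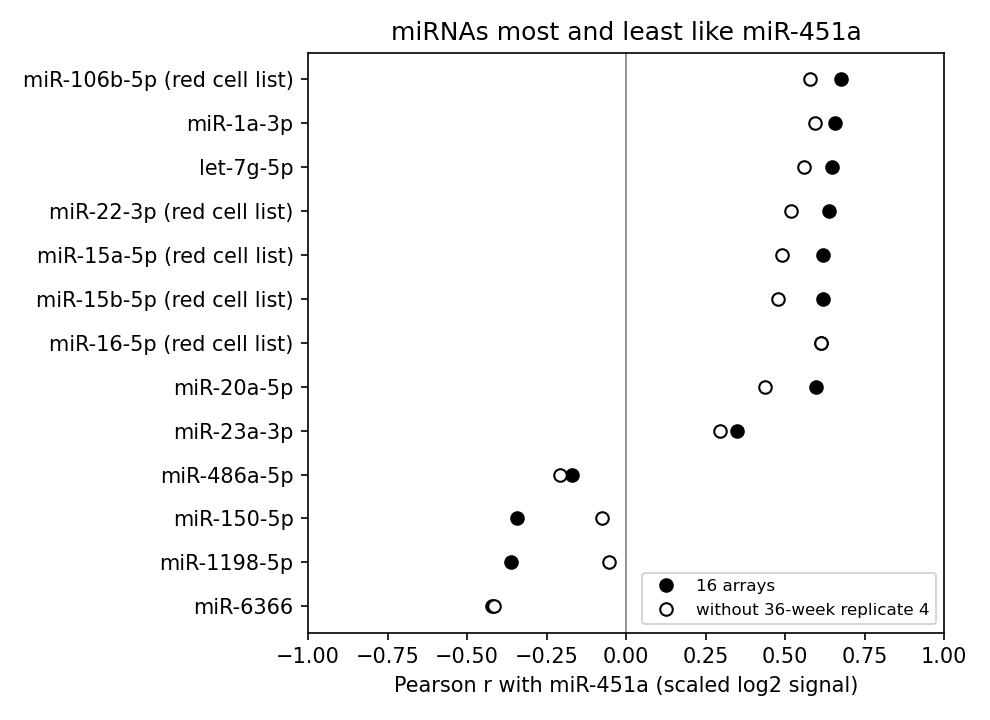
Pearson r with miR-451a over arrays (horizontal axis) for the 8 most and 3 least alike miRNAs and for miR-23a-3p and miR-486a-5p, over all 16 arrays (filled) and without 36-week replicate 4 (open). Red cell miRNAs make up 5 of the 8 upper names, and miR-486a-5p lies below 0 in both settings.

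The 2 arms of miR-144, the transcript partner of miR-451a, lay at the limit of the array. miR-144-3p, the arm usually retained, was detected on 4-week replicates 2 and 3, 8-week replicates 2 and 4, 36-week replicate 1 and 58-week replicate 3. Its scaled signals there were 13.9, 9.08, 17.7, 5.90, 14.2 and 21.5 in that order. On the 10 other arrays it ran from -141 to 12.1, with 4 of them below 0 and 5 above the lowest of the detected values. So the detected and undetected arrays were not separate groups of signal, and the calls gave 2, 2, 1 and 1 mice of 4 from the youngest to the oldest age. Detection went with a quiet array: negative-control spots had a standard deviation of 1.82 to 2.76 on the 6 arrays with detection, and of 2.90 or more on 9 of the 10 without, the exception being 8-week replicate 1 at 2.01. Of 480 spots of miR-144-3p, 91 were well above background. The part of background in these calls was not tested.

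**Figure D5:**
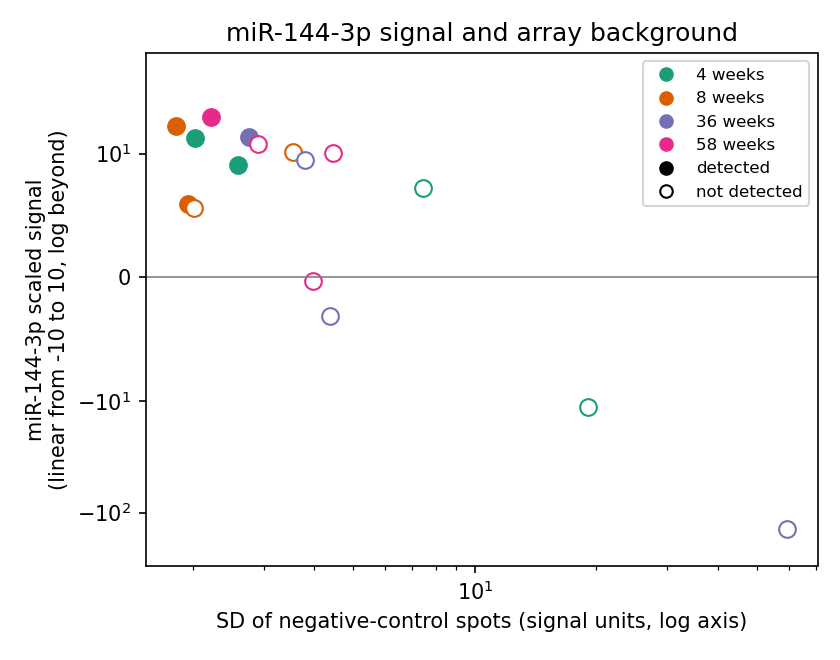
Scaled signal of miR-144-3p (vertical axis, linear from -10 to 10 and logarithmic beyond) against the standard deviation of negative-control spots on the same array (horizontal log axis), 1 point per array, coloured by age, filled where detected. All 6 filled points lie at 2.76 or less.

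miR-144-5p was below 0 in scaled signal on all 16 arrays, with 0 of 480 spots well above background, so its level was not detectable here at any age. Because of the filter neither arm entered the tests above. The log2 ratio of miR-144-3p to miR-451a rests on a miR-144-3p signal that was not detected on 10 of the 16 arrays and sat at the floor on 4 of these, so its differences are numbers of the calculation and no measured change is read from them. As computed they were 1.00 from 4 to 8 weeks (exact permutation p = 0.171), 0.48 from 36 to 58 weeks (exact permutation p = 0.343) and 0.90 from 4 to 58 weeks (exact permutation p = 0.229). They moved with the treatment of the background: with normexp correction the first was 0.92 (exact permutation p = 0.0286, adjusted over the 9 ratio tests 0.0857) and the last 1.04 (exact permutation p = 0.0571), and with the deposited total signal the last was 0.40.

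The wider red cell list gave no call at any age either. It names 17 miRNAs, of which 16 are on the array and 11 passed the detection filter, and 0 of the 11 passed limma's test in any comparison, beside the shares given above. miR-363-3p, miR-182-5p, miR-183-5p and miR-96-5p were detected on no array. From 4 to 8 weeks 9 of the 11 had lower estimates, with a median of -0.48 against -0.72 over all tested miRNAs. From 36 to 58 weeks 8 had higher ones, with a median of 0.28 against -0.52. Without 36-week replicate 4, the array of most background, the median of all tested miRNAs turned to 0.30. The list's median in that setting is not given here, so no contrast between the list and the rest is read from this comparison. From 4 to 58 weeks 7 were lower and 4 higher, with a median of -0.12, and the median slope was -0.03 against 0.12. miR-92a-3p, a product of the miR-17 family clusters abundant in red cells, had the smallest p of the slope, 0.19 ± 0.09 per doubling of age (adjusted p = 0.525). miR-16-5p, which is widely used to track lysis, had a slope of -0.17 ± 0.25 (adjusted p = 0.624) and miR-106b-5p one of -0.13 ± 0.18 (adjusted p = 0.606). Each array's scaled signal was also summed over those miRNAs of the list that it detected. Sums ran from 1564 to 1996 at 4 weeks, 1052 to 1364 at 8, 917 to 2513 at 36 and 1476 to 2266 at 58. The 917 is from 36-week replicate 4, the array of most background, where miR-92a-3p (715) and miR-25-3p (202) were detected. On it miR-16-5p, miR-15a-5p, miR-15b-5p and miR-22-3p were not detected and add nothing to the sum. The 8-week sums lay below the 4-week sums with no overlap, in a comparison where 229 of the 285 tested miRNAs were lower. The list's median was lowered less than that of all tested miRNAs. Between these ages 3.86% of single tested miRNAs had no overlap, and no such share was computed for sums. A sum without overlap is not particular to this list: some of the lists below parted in that way from 4 to 58 weeks, where the red cell sums overlapped. These sums rest on the scaling, as the single miRNAs do.

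miRNAs of other sources were read beside the members. Sums of these lists, too, count only the miRNAs detected on the array. A sum of 0 therefore marks an array that detected none of the list, and no absence from the serum is read from it. For the liver list that array was 36-week replicate 4, the array of most background. Of 5 miRNAs known to fall as red cells mature, 4 were tested and 0 passed, with miR-222-3p at a slope of 0.29 ± 0.11 (adjusted p = 0.464), and miR-155-5p was detected on no array. All 4 estimates of the slope were above 0, as were 165 of the 285 over all tested miRNAs. Their sum was 294 to 374 at 4 weeks, 132 to 585 at 8, 221 to 674 at 36 and 570 to 646 at 58. Of 7 striated muscle miRNAs, 3 were tested (miR-133a-3p 0.16 ± 0.15, miR-133b-3p 0.15 ± 0.15 and miR-1a-3p -0.07 ± 0.30 per doubling) and the defining miR-206-3p, miR-208a-3p, miR-208b-3p and miR-499-5p were detected on no array. The muscle sum was 170 to 691 at 4 weeks, 124 to 613 at 8, 509 to 1847 at 36 and 176 to 605 at 58, with overlapping mice between 4 and 8 weeks. Of 6 platelet and endothelial miRNAs 5 were tested, with 2 slopes above 0 and 3 below. The smallest p was that of miR-199a-3p, detected on 11 arrays, at -0.56 ± 0.15 per doubling (adjusted p = 0.130). Its difference from 4 to 58 weeks was -2.42 ± 0.61 (adjusted p = 0.114). The sum of the list was 746 to 1032 at 4 weeks, 389 to 979 at 8, 273 to 1553 at 36 and 1268 to 1395 at 58, with miR-126a-5p detected on no array. Of 6 leukocyte miRNAs, which include miR-150-5p and miR-155-5p of the maturation list, 4 were tested and had slopes above 0, and the sum was 130 to 317 at 4 weeks, 81 to 202 at 8, 0 to 323 at 36 and 330 to 410 at 58, with miR-142a-5p and miR-155-5p detected on no array. Of 3 liver miRNAs 2 were tested, and the sum was 45 to 1249, 23 to 393, 0 to 491 and 163 to 249 from the youngest to the oldest age. From 4 to 58 weeks, across slides, the sums of the maturation, platelet and endothelial, and leukocyte lists were higher with no overlap. The muscle and liver sums overlapped there. No member of any of these lists passed limma's test in any comparison, and the part of these sources in the members' values was not tested.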

How the data were processed

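Per the file headers, each deposited file is Agilent scanner output of a 1-colour array, with the spot intensities written by Agilent Feature Extraction 11.5, per the submitters' processing notes; intensity, total signal, detection and outlier flags are the authors' values. From these, outlier spots were left out, processed intensities were averaged over spots and then over probes, and arrays were scaled to a common 75th percentile of the 24 miRNAs that all of them detected. A floor of 3.79 (the lowest detected miRNA per array, median over arrays) was applied before log2. The 285 miRNAs detected on at least 3 arrays of 1 age were tested with limma 3.58.1 in R 4.3.3 (1 mean per age, or the slope per doubling of age), with Benjamini-Hochberg adjustment over all 285 and a threshold of 0.05; all adjusted p-values of single miRNAs are limma's. Ratios were tested by 2-sided exact permutation (scipy 1.17.1) over 70 assignments, and correlations by 100000 permutations. The members and lists were chosen with earlier results of these data known, as were the ratios. Members of lists are named by the smallest p of the slope, at most 4 per list. Alternatives covered scaling, background, filter, floor, probes, weights, slide, replicate number and single arrays. Array number, 4 per age, limits the precision.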

Additional observations from a re-analysis of the deposited data

Results flagged for a closer look

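The log2 scaled signal of miR-486a-5p on 36-week replicate 3 was 10.86, while the other 3 mice of that age lay between 9.27 and 9.48, a gap larger than the spread of such a group usually allows. Of 20 groups of 4 values examined in this way 1 stood out, and chance gives about 1 in 20. The same array had the highest scaled signal of all 16 for miR-16-5p (542), miR-15b-5p (408), miR-25-3p (447) and miR-486a-3p (20.3), and the lowest for miR-23a-3p (131) and miR-223-3p (68.6). Of the red cell list, miR-22-3p was only 4th highest there, miR-92a-3p 6th highest and miR-15a-5p next to lowest. miR-451a stood at 3079 on this array, between other mice of that age, and miR-144-3p was not detected. The muscle miRNA miR-133a-3p was 6th highest.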

How the results depend on the processing

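No member passed in any comparison under any alternative, with 1 exception: array weights called 1 member, miR-451a, in the test for any difference (adjusted p = 0.0271), where 218 of 285 miRNAs passed. Scaling over the 75th percentile of all miRNAs was not run, because it is at or below 0 on 1 array. From 36 to 58 weeks the sign of miR-486a-5p turned to 0.089 with scaling that left out the red cell miRNAs, 0.40 with quantile normalisation, 0.090 with the brightest probe, 0.12 with array weights, 0.15 without marked arrays and 0.083 without the array of most background. miR-451a turned to -0.37 with no scaling and -0.52 with array weights, and was 0 with quantile normalisation, as at 8 against 4 weeks. With no scaling miR-486a-5p turned to a slope of -0.082 and a difference of -0.44 from 4 to 58 weeks. Quantile normalisation turned miR-451a over miR-23a-3p to 0.29 at 8 against 4 weeks and miR-486a-5p over miR-451a to 0.40 at 58 against 36, where it was 0.013 without marked arrays. The brightest probe turned miR-144-3p over miR-451a to -0.13 at 58 against 36 weeks. The correlation turned to 0.46 with no scaling, 0.045 without red cell miRNAs in the scaling, 0.18 after age means were taken off and 0.047 on the second slide. Beyond what follows by construction, the cause was not tested.

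Leaving out each array in turn kept all 5 counts of members passing at 0. It gave miR-451a -0.95 to -0.42 at 8 against 4 weeks, -0.12 to 0.30 at 58 against 36, -0.79 to -0.39 at 58 against 4 and a slope of -0.14 to -0.05. It gave miR-486a-5p 0.44 to 0.95, -0.21 to 0.34, 0.39 to 0.71 and 0.09 to 0.15 in the same order. The ratio of miR-486a-5p to miR-451a ran 1.20 to 1.57, -0.49 to 0.26 and 1.01 to 1.18. The ratio of miR-451a to miR-23a-3p ran -0.72 to -0.18, -0.75 to -0.10 and -0.86 to -0.35. The ratio of miR-144-3p to miR-451a ran 0.68 to 1.44, 0.25 to 0.85 and 0.58 to 1.34. Without 36-week replicate 3 or 4 the correlation was -0.21 to -0.11.

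Replicate numbers did not pair the mice (24 same-number pairs, r of deviations -0.90 to 0.81, 11 over 0.1). With the replicate number as a block, the differences at 8 against 4 weeks were -0.80 for miR-451a and 0.57 for miR-486a-5p (adjusted p = 0.568 for both), and the ratio differences of 1.37 and 1.10 had an exact permutation p = 0.125, the smallest that 4 pairs allow.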

Other observations

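The miRNAs most like miR-486a-5p over the 16 arrays, ranked after its low correlation with miR-451a was seen and given with no test, were miR-222-3p (r = 0.60), miR-29a-3p (0.47) and miR-25-3p (0.41). The least alike were miR-23a-3p (-0.68), miR-23b-3p (-0.57) and miR-19b-3p (-0.54). With no scaling miR-23a-3p stood at -0.22, and under quantile normalisation at 0.03. Of the red cell list, miR-25-3p alone was among the 8 most alike.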
